A study of Homo sapiens with 9 samples.

Results

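Solute carrier genes, whose symbols begin with SLC and a family number, were followed across 3 groups of A549 cultures. The members were the protein-coding genes of that name with at least 180 counts summed over the 9 libraries, less 10 that were left out by name, and they made up 205 of the 62257 gene rows of the deposited tables. Of 377 protein-coding SLC genes in the tables, 162 fell below that minimum, 28 of these with no count in any library. The members were thus chosen by their counts summed over all groups, so their levels are a description. The minimum uses no difference between groups, but the 10 genes were left out by name with results of these data known, and 7 of the 9 of them that were tested were called with STS_apoEV. Just inside the minimum lay SLC18A2 with 197 counts, SLC26A9 with 201 and SLC16A14 with 209, and just outside lay SLC39A1 with 176, SLC47A2 with 160 and SLC25A32 with 158. All 205 members also passed the expression filter of the test. Of the members, 4 carry an SLC symbol but are not carriers: SLC22A18AS, SLC2A4RG, SLC4A1AP and SLC7A6OS.

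Solute carriers are membrane proteins that move small molecules without splitting ATP themselves. Some let a solute run down its own gradient, and others couple it to sodium, protons or a counter-moving solute, so that the ion gradients made by ATP-driven pumps pay for uptake or export. Carriers of the plasma membrane admit glucose, amino acids, vitamins and nucleosides, those of lysosomes and the Golgi release breakdown products or import nucleotide sugars, and the SLC25 family serves the inner mitochondrial membrane. Tumour cells depend on several of them, among them the GLUT1 glucose carrier and the glutamine carriers.

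The cells were A549, an established line from a human lung adenocarcinoma, and RNA was taken after 96 h. One group received phosphate-buffered saline (control). The second received apoptotic extracellular vesicles, membrane particles shed by dying cells, from apoptosis set off with cisplatin, a DNA-crosslinking drug (DDP_apoEV), and the third received vesicles from apoptosis set off with staurosporine, a protein kinase inhibitor (STS_apoEV). Each group held 3 libraries. The labels do not name the cells that shed the vesicles. No source used here says whether the libraries of a group stem from independent cultures, and the spread behind the p-values may therefore be technical.

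Library totals ran from 13799950 to 16526399 counts, of which the members took 0.900% to 0.996%. Epithelial markers of the line summed to 26490 to 27725 CPM (counts scaled to library size) in control. They summed to 19413 to 21015 CPM with DDP_apoEV and 25848 to 26493 CPM with STS_apoEV, with all 8 markers detected. The STS_apoEV sum joins opposite shifts of mean CPM. Below control were KRT8 (4815 against 6476), KRT18 (2239 against 4033), KRT7 (713 against 1157) and AKR1B10 (5340 against 6406). So were CDH1 (9.29 against 17.4) and EPCAM (1.65 against 3.58). ALDH1A1 (10362 against 8047) and ALDH3A1 (2574 against 1091) were above it. With DDP_apoEV only KRT7 (1288) and ALDH3A1 (1340) were above control. Leukocyte markers, of which 2 of 6 had 90 counts or more in all, summed to 10.6 to 16.4 CPM in control. They summed to 14 to 15.3 CPM in DDP_apoEV and 20.3 to 25.6 CPM in STS_apoEV. Endothelial markers (2 of 4) reached at most 1.74, 1.38 and 4.32 CPM in the same order, stromal markers (1 of 6) at most 3.49, 2.51 and 3.85, and erythroid markers (0 of 4) at most 0.323, 0.370 and 0.138. The part of these marker shifts in the results was not tested. In RNA from whole cultures, fewer cells of a kind and less RNA per cell cannot be told apart.

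The levels of the members spanned from 0.0579 to 471 FPKM (fragments scaled to gene length and library size, which allows genes to be compared) in control, with a median of 4.14. Of the 205, 47 reached 10 FPKM and 40 stayed below 1. The 10 highest held 48.3% of the FPKM summed over all members. First stood SLC25A5, at 471 ± 16.5 FPKM (SD, n = 3), followed by SLC25A6 at 189 ± 16.6. These encode adenine nucleotide translocases, which exchange ADP and ATP across the inner mitochondrial membrane. SLC38A2, a sodium-coupled carrier of glutamine and other small neutral amino acids, came next with 102 ± 6.64, then SLC25A3, the mitochondrial phosphate carrier, with 75.3 ± 3.14. The next 6 lay close together. SLC27A2, a fatty acid carrier and acyl-CoA synthetase, stood at 43.2 ± 1.19 FPKM, SLC38A1, a glutamine carrier, at 37.5 ± 4.43 and SLC66A3 at 36.6 ± 1.39. SLC25A39, which brings glutathione into mitochondria, stood at 35.3 ± 2.39, SLC25A1, the citrate carrier, at 33.1 ± 3.45 and SLC25A11, the oxoglutarate and malate carrier, at 30.2 ± 1.83. From SLC38A1 to SLC25A11, neighbouring means differed by less than the larger of their SDs. SLC25A3, SLC25A5 and SLC25A6 have processed pseudogene copies, so their counts are uncertain.

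**Figure D1:**
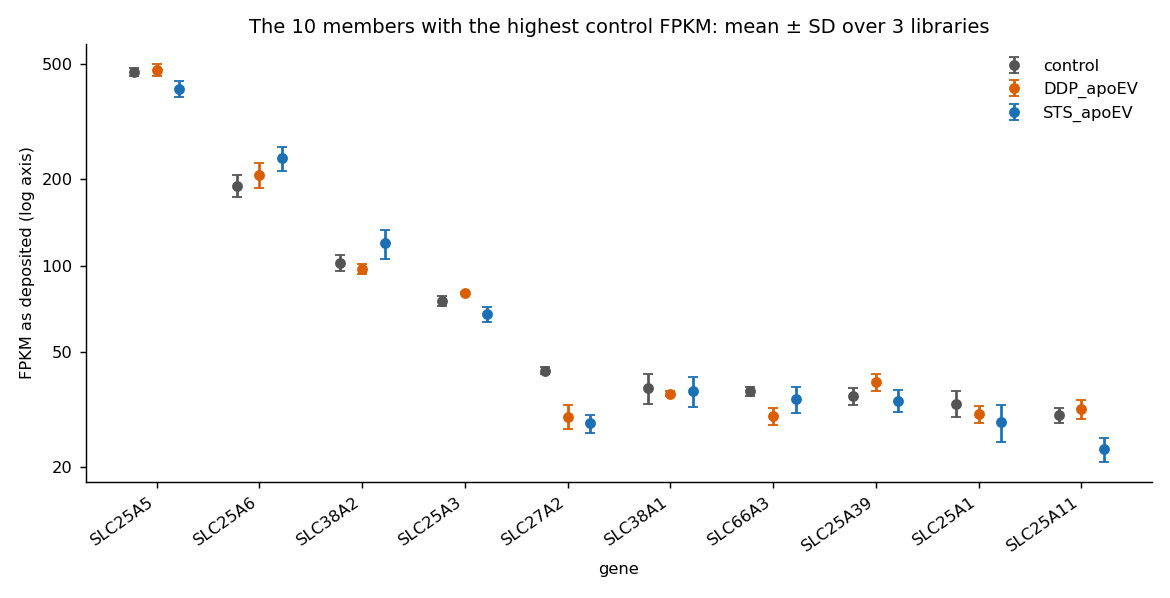
Deposited FPKM (log axis) of the 10 members with the highest control level, as mean ± SD over 3 libraries in each of the 3 groups. SLC25A5 stood highest in every group, and SLC27A2 lay lower in both vesicle groups than in control.

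SLC2A1 (GLUT1), the main glucose carrier of many tumour cells, had 14.3 ± 0.357 FPKM in control, and SLC1A5, which carries glutamine, had 30.0 ± 2.04. SLC34A2, the phosphate carrier of alveolar type II cells, had 2 counts in all 9 libraries together and is no member.

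With DDP_apoEV, 15 members rose and 28 fell against control, 7.32% and 13.7% of the members, where 7.16% and 8.32% of all 16947 genes tested did so. SLC7A7, which exports arginine and lysine, fell by 2.02 on the log2 scale, the largest fall of any member with DDP_apoEV. Falls also covered 4 of 12 sugar carriers and 4 of 10 lipid carriers. A gene was called changed at an adjusted p under 0.05 in edgeR's quasi-likelihood test with Benjamini-Hochberg adjustment over all genes, and every adjusted p given here comes from it unless another tool is named. In either direction, 43 members (21.0%) and 15.5% of all genes were called. All genes tested, here and in the other comparisons, include genes below the members' minimum of 180 counts and are not limited to protein-coding genes. The part of this in the shares called was not tested. The median member changed by −0.03 and the median gene by −0.00 on the log2 scale. Changes of at least 2-fold were found for 3 of the 205 members upward and 6 downward, against 1.21% and 2.09% of all genes. The libraries did not overlap for 74 members, beside 32.2% of all genes. In 29 of the 43 the call held when each library was left out in turn. Losses of single calls are named for fits on counts, and fits on filtered FPKM lost 12 to 13 of the 43.

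With STS_apoEV, 49 members rose and 43 fell, 23.9% and 21.0% of the members, beside 15.9% and 16.8% of all genes. The vitamin C carrier SLC23A2 rose by 1.46 on the log2 scale, the arginine carrier SLC7A2 by 1.48 and the sugar carrier SLC2A12 by 1.76, while the myo-inositol carrier SLC5A3 fell by 1.24 and the bicarbonate carrier SLC4A4 fell by 1.28. Of 27 amino acid carriers 10 rose and 4 fell, and of 40 mitochondrial carriers 5 rose and 10 fell. In either direction, 92 members (44.9%) and 32.8% of all genes were called. The median member changed by 0.05 and the median gene by 0.01. At least 2-fold, 6 of the 205 members rose and 3 fell, smaller shares than the 4.12% and 2.54% of all genes. The libraries did not overlap for 105 members, beside 43.3% of all genes. Leaving out each library in turn left 64 of the 92 calls standing, and fits on filtered FPKM lost 16.

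Between the vesicle types, 67 members were higher and 40 lower with STS_apoEV than with DDP_apoEV, 32.7% and 19.5% of the members, beside 20.2% and 19.5% of all genes. Amino acid carriers were higher with STS_apoEV in 15 of 27 cases and lower in 2, and mitochondrial carriers were lower in 12 of 40 and higher in 6. In either direction, 107 members (52.2%) and 39.7% of all genes were called. The median difference was 0.10 over the members and 0.03 over all genes. By 2-fold or more, 20 of the 205 members were higher, a larger share than the 5.94% of all genes. Lower by that much were 4, a smaller share than the 2.8% of all genes. The libraries did not overlap for 116 members, beside 47.5% of all genes. Of the 107 calls 71 held without each library in turn, and fits on filtered FPKM lost 26. Tested for any difference among the 3 groups, 120 members (58.5%) were called, as were 45.1% of all genes. The comparisons share libraries pairwise, so their counts are not independent of each other.

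**Figure D2:**
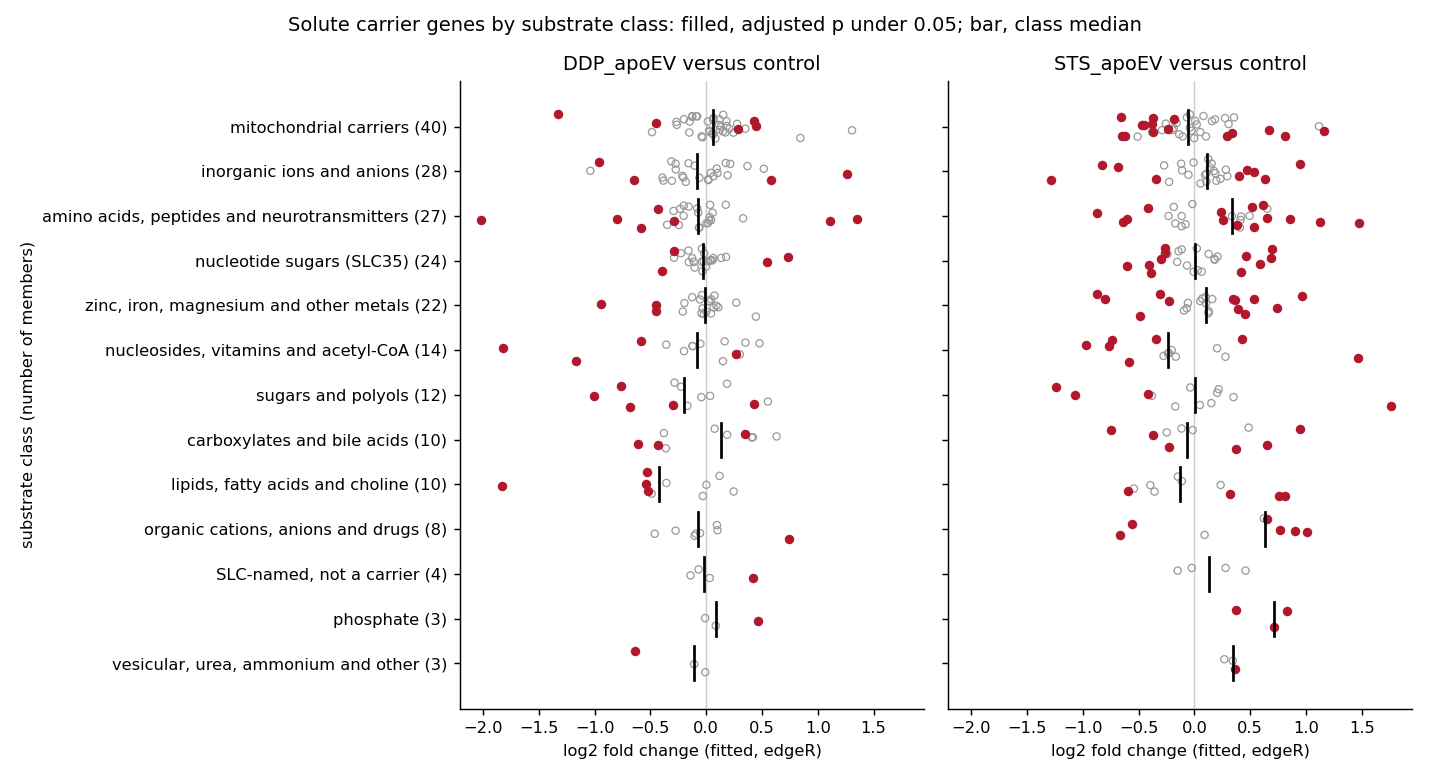
Fitted log2 fold changes against control of the 205 members (points), by substrate class, for DDP_apoEV (left) and STS_apoEV (right). Filled points passed an adjusted p of 0.05 and black bars are class medians, which reach 0.34 for the amino acid class with STS_apoEV and −0.42 for the lipid class with DDP_apoEV.

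The median of the 27 amino acid carriers was 0.34 with STS_apoEV, where 13 were not called. With DDP_apoEV 2 rose, 5 fell and the median was −0.07. Among the carriers of cationic amino acids, SLC7A7 works with the SLC3A2 chain and releases arginine and lysine in exchange for neutral amino acids and sodium. It measured 85, 77.8 and 79.7 CPM in control, 18.2, 20.7 and 21 in DDP_apoEV and 47.5, 55.5 and 52.9 in STS_apoEV. The DDP_apoEV libraries were the lowest, the STS_apoEV libraries lay between, and no group overlapped another. Its log2 fold change was −2.02 ± 0.09 (SE) with DDP_apoEV (adjusted p = 4.04e-17) and −0.64 ± 0.09 with STS_apoEV (adjusted p = 4.0e-07). SLC7A2, which takes up arginine, went the other way, with 7.29, 7.18 and 8.68 CPM in control, 9.69, 10.2 and 9.15 in DDP_apoEV and 20.6, 20.3 and 23.5 in STS_apoEV. Its STS_apoEV libraries stood far above the rest, at 1.48 ± 0.14 against control (adjusted p = 2.34e-10), whereas with DDP_apoEV the difference was 0.33 ± 0.14 (adjusted p = 0.118). SLC7A6, a close relative of SLC7A7 with the same kind of exchange, had 21.1, 21.5 and 23.9 CPM in control, 23.2, 21.9 and 23.4 in DDP_apoEV and 14, 14.8 and 14.8 in STS_apoEV. The STS_apoEV libraries were the lowest (−0.61 ± 0.11, adjusted p = 6.83e-05), and 55.6% of its exon bases are shared with other genes, chiefly SLC7A6OS, which was not called in any comparison.

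Carriers of acidic and neutral amino acids also moved. SLC1A1, the high-affinity carrier of glutamate, aspartate and cysteine, measured 14.6, 15 and 15.5 CPM in control, 7.88, 9.75 and 8.26 in DDP_apoEV and 23.3, 22.9 and 24.4 in STS_apoEV. Its libraries were lowest with DDP_apoEV and highest with STS_apoEV, without overlap. The changes were −0.80 ± 0.13 and 0.65 ± 0.12 against control (adjusted p = 2.34e-05 and 6.97e-05). SLC6A15, a sodium-coupled carrier of branched-chain amino acids and proline, had 9.37, 10.5 and 11.2 CPM in control, 8.19, 10.1 and 8.2 in DDP_apoEV and 24.2, 20.9 and 22.9 in STS_apoEV. The STS_apoEV libraries stood above all others, at 1.13 ± 0.13 against control (adjusted p = 3.45e-08), and the DDP_apoEV libraries overlapped control. SLC6A6, the taurine carrier, rose by 0.38 ± 0.08 with STS_apoEV (adjusted p = 0.000401). SLC1A4, which carries alanine, serine and cysteine, fell with DDP_apoEV (−0.58 ± 0.14, adjusted p = 0.0038), a call lost on leaving out control library 3 (adjusted p = 0.0687).

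Among the glutamine carriers, SLC38A2 had 623, 677 and 713 CPM in control, 611, 661 and 632 in DDP_apoEV and 798, 700.5 and 881 in STS_apoEV. All STS_apoEV libraries but the second lay above every control library, and the change of 0.24 ± 0.08 (adjusted p = 0.0149) was lost on leaving out control library 1 or 2 or STS_apoEV library 1 or 3 (adjusted p 0.0511 to 0.147). SLC1A5 differed by 0.02 ± 0.09 with DDP_apoEV (95% confidence interval −0.17 to 0.20) and by −0.11 ± 0.09 with STS_apoEV (−0.30 to 0.07), and SLC38A1 by −0.07 ± 0.08 (−0.24 to 0.10) and −0.02 ± 0.08 (−0.19 to 0.15). None of these passed the test.

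Lysosomes release the amino acids of digested proteins through carriers of their own membrane. With STS_apoEV, SLC38A7, which releases glutamine, rose by 0.51 ± 0.12 (adjusted p = 0.00122) and SLC36A1, a proton-coupled carrier of small neutral amino acids, by 0.54 ± 0.12 (adjusted p = 0.000929). SLC66A1, which releases cationic amino acids, differed from control by 0.42 ± 0.18 (adjusted p = 0.0836). SLC38A9, the arginine sensor of the lysosome, and SLC15A4, a carrier of histidine and peptides, were not called in any comparison.

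Of 12 sugar and polyol carriers 4 fell and 1 rose with DDP_apoEV, with a median of −0.20. SLC2A3 (GLUT3), a high-affinity glucose carrier, had 28.2, 29.5 and 25.9 CPM in control, 12.8, 13.9 and 15 in DDP_apoEV and 18.9, 21 and 22.8 in STS_apoEV. The DDP_apoEV libraries were the lowest and the STS_apoEV libraries lay between them and control, with no overlap. The changes were −1.0 ± 0.11 (adjusted p = 5.36e-08) and −0.41 ± 0.11 (adjusted p = 0.00387). SLC2A1 (GLUT1) measured 97.7, 92.5 and 96.5 CPM in control, 75.9, 88.1 and 69.3 in DDP_apoEV and 88.6, 89.3 and 76.7 in STS_apoEV. All vesicle libraries lay below all control libraries. The change of −0.30 ± 0.09 with DDP_apoEV (adjusted p = 0.0149) was lost on leaving out control library 1 or DDP_apoEV library 1 or 3 (adjusted p 0.0577 to 0.125), and with STS_apoEV it did not pass (−0.17 ± 0.09, adjusted p = 0.13).

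The carriers of myo-inositol, a sugar alcohol that cells use as an osmolyte and as a lipid precursor, were called against control with different vesicle types. SLC5A3, the sodium-coupled one, measured 52.8, 62.8 and 53 CPM in control, 42.3, 48.6 and 47.5 in DDP_apoEV and 26.1, 19 and 26.5 in STS_apoEV. The STS_apoEV libraries were the lowest, at −1.24 ± 0.11 (adjusted p = 4.55e-10), and with DDP_apoEV the difference was −0.28 ± 0.10 (adjusted p = 0.0611). Though not called, the DDP_apoEV libraries all lay below every control library. SLC2A13, the proton-coupled one, measured 17, 21.6 and 20.3 CPM in control, 10.6, 11.9 and 12.2 in DDP_apoEV and 24.1, 18.6 and 25.3 in STS_apoEV. Its DDP_apoEV libraries were the lowest and the others overlapped. It changed with DDP_apoEV by −0.76 ± 0.13 (adjusted p = 7.04e-05) and differed by 0.20 ± 0.13 with STS_apoEV (adjusted p = 0.232). SLC45A4, of the proton-coupled sugar carrier family, had 35, 27.8 and 32.6 CPM in control, 27.8, 33.3 and 23.7 in DDP_apoEV and 14.4, 16.2 and 14.9 in STS_apoEV. Its STS_apoEV libraries were below all others (−1.07 ± 0.12, adjusted p = 1.76e-08).

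SLC2A12 (GLUT12), a glucose carrier, had the largest rise of any member with STS_apoEV. It lies at chr6:133987581-134052624 on the minus strand (hg38). The libraries held 3.32, 4.79 and 4.93 CPM in control, 2.25, 3.11 and 2.73 in DDP_apoEV and 15.1, 13.4 and 15.7 in STS_apoEV. The STS_apoEV libraries stood above all others, at 1.76 ± 0.19 against control (adjusted p = 4.96e-09) and 2.45 ± 0.20 against DDP_apoEV (adjusted p = 7.87e-12). The lower level with DDP_apoEV (−0.68 ± 0.21, adjusted p = 0.0226) lost its call on leaving out control library 2 or 3 or DDP_apoEV library 1, and under limma-voom and with the compared groups fitted alone (adjusted p 0.0615 to 0.118). Of its exon bases 38.9% are shared with TBPL1, whose reads could enter the count. The 250 bases before its start in RefSeq (GRCh38.p14, chr6:134052625-134052874, minus strand) are shown because they hold an AP-1 motif, in capitals, 98 bases before the start.
SLC2A12: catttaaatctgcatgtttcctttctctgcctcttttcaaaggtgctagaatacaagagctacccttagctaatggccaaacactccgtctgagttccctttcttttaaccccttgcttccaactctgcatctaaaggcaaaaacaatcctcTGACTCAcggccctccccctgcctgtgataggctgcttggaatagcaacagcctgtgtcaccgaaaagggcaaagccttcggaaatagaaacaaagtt
The motif TGANTCA, searched on both strands, stood in 5.26% of the 171 member windows that RefSeq supplied and in 6.6% of all 27305 windows. A match is a description of the letters only.

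Vitamin carriers included another of the large rises with STS_apoEV. SLC23A2, the sodium-coupled vitamin C carrier found in most tissues, measured 48.6, 61.1 and 62.4 CPM in control, 48, 58.9 and 59.1 in DDP_apoEV and 160.0, 148 and 167 in STS_apoEV. Control and DDP_apoEV libraries overlapped and every STS_apoEV library was far above them, at 1.46 ± 0.09 against control (adjusted p = 6.85e-13). SLC23A1, the epithelial vitamin C carrier, had 14.3, 15 and 15.6 CPM in control, 5.63, 6.22 and 8.2 in DDP_apoEV and 7.99, 8.84 and 9.64 in STS_apoEV. It was lower in every vesicle library, at −1.16 ± 0.16 with DDP_apoEV (adjusted p = 1.15e-06) and −0.76 ± 0.15 with STS_apoEV (adjusted p = 0.000191). With STS_apoEV the pair of vitamin C carriers thus moved in opposite directions.

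Among carriers of B vitamins, the thiamine carrier SLC19A2 and the folate carrier SLC46A1 were not called in any comparison. Of the exon bases of SLC46A1, 61.5% are shared with other genes, among them SARM1, whose reads could enter the count. SLC52A3, which takes up riboflavin, measured 2.28, 2.6 and 2.43 CPM in control, 0.438, 0.853 and 0.762 in DDP_apoEV and 3.72, 3.17 and 1.97 in STS_apoEV. The DDP_apoEV libraries all lay below every other library (−1.82 ± 0.36, adjusted p = 0.000418), and the level is low throughout. SLC19A3, a thiamine carrier, had 8.65, 5.68 and 6.11 CPM in control, 9.07, 10.2 and 6.86 in DDP_apoEV and 4.0, 2.5 and 3.94 in STS_apoEV. Its STS_apoEV libraries were the lowest (−0.97 ± 0.22, adjusted p = 0.000839). SLC5A6, which carries biotin, pantothenate and lipoate, measured 50.2, 48.7 and 53.1 CPM in control, 61.1, 59.5 and 61.9 in DDP_apoEV and 42.5, 37.8 and 39.3 in STS_apoEV. No 2 groups overlapped: it was above control with DDP_apoEV (0.26 ± 0.08, adjusted p = 0.0243) and fell with STS_apoEV (−0.34 ± 0.08, adjusted p = 0.00164). The DDP_apoEV call was lost on leaving out control library 1 or 2 or DDP_apoEV library 1 or 3, and with no filter on low counts (adjusted p 0.0589 to 0.101). SLC29A1, the main equilibrative nucleoside carrier, fell with STS_apoEV (−0.58 ± 0.09, adjusted p = 4.64e-06), as did SLC29A2, its relative (−0.74 ± 0.15, adjusted p = 0.000173). Over the 14 carriers of this class 2 rose and 5 fell with STS_apoEV, and 1 rose and 3 fell with DDP_apoEV.

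Of 10 lipid carriers 4 fell with DDP_apoEV and the other 6 were not called, with a median of −0.42, and 3 rose and 1 fell with STS_apoEV, with a median of −0.13. SLC27A2, which takes up and activates very long-chain fatty acids, had 124, 117 and 124 CPM in control, 77.3, 81.2 and 92.8 in DDP_apoEV and 74.4, 82.1 and 85.2 in STS_apoEV. Both vesicle groups lay below control and overlapped each other, at −0.54 ± 0.08 (adjusted p = 8.25e-06) and −0.59 ± 0.08 (adjusted p = 5.84e-07). SLC27A1, a carrier of long-chain fatty acids, measured 6.44, 7.11 and 7.57 CPM in control, 4.75, 4.27 and 5.65 in DDP_apoEV and 11.7, 14.2 and 11.1 in STS_apoEV. It was highest in the STS_apoEV libraries (0.81 ± 0.17, adjusted p = 0.000305). The DDP_apoEV libraries were below control (−0.53 ± 0.18, adjusted p = 0.0417), a call lost on leaving out control library 2 or 3 or DDP_apoEV library 1 or 2, and with no filter on low counts, under DESeq2, under limma-voom, with the compared groups fitted alone and with a replicate block (adjusted p 0.0568 to 0.157). SLC44A5, of the choline carrier family, had 5.08, 3.08 and 3.61 CPM in control, 0.688, 1.58 and 1.02 in DDP_apoEV and 3.44, 2.56 and 2.96 in STS_apoEV. The DDP_apoEV libraries were the lowest (−1.83 ± 0.32, adjusted p = 7.04e-05) and those of control and STS_apoEV overlapped. SLC51B, a subunit of the bile acid and steroid exporter, measured 12.1, 10.9 and 12.6 CPM in control, 7.31, 9.57 and 7.81 in DDP_apoEV and 22.1, 21.5 and 16.5 in STS_apoEV. The groups did not overlap. It rose with STS_apoEV (0.76 ± 0.14, adjusted p = 6.46e-05), and its fall with DDP_apoEV (−0.53 ± 0.15, adjusted p = 0.0119) was lost on leaving out control library 3 or DDP_apoEV library 1 (adjusted p 0.0548 to 0.0762). The partner subunit SLC51A was not called in any comparison.

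Of 22 metal carriers 3 fell with DDP_apoEV and the other 19 were not called, with a median of −0.01, against 7 rises and 5 falls with STS_apoEV, with a median of 0.10. SLC40A1 (ferroportin), the exporter of iron from cells, had 71.4, 71.6 and 67.7 CPM in control, 29.9, 36.3 and 43.8 in DDP_apoEV and 109, 114 and 128 in STS_apoEV. The groups did not overlap: DDP_apoEV libraries were lowest and STS_apoEV libraries highest. Against control the changes were −0.94 ± 0.10 (adjusted p = 1.71e-07) and 0.74 ± 0.10 (adjusted p = 1.35e-06), and between the vesicle types 1.68 ± 0.10 (adjusted p = 8.89e-13). The gene is at chr2:189560590-189583758 on the minus strand in the deposited table, whereas the RefSeq start lies inside that span. The RefSeq window before that start (GRCh38.p14, chr2:189580787-189581036, minus strand) is shown with its 3 GC boxes (GGGCGG on either strand) in capitals, because the gene changed in opposite directions in the vesicle groups.
SLC40A1: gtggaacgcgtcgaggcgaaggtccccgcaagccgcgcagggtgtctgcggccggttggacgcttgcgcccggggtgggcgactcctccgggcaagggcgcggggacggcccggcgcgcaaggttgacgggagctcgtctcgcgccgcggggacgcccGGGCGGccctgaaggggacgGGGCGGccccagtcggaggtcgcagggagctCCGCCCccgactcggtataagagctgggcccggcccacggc

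Zinc carriers of the ZIP family bring zinc into the cytosol. SLC39A14, which also takes up iron and manganese, measured 104, 107 and 104 CPM in control, 106, 126 and 107 in DDP_apoEV and 61.4, 59 and 51.4 in STS_apoEV. Control and DDP_apoEV libraries overlapped and the STS_apoEV libraries lay well below them (−0.88 ± 0.09, adjusted p = 6.91e-10). SLC39A8, its close relative, went up with STS_apoEV by 0.54 ± 0.08 (adjusted p = 2.95e-06). SLC39A10 had 136, 145 and 145 CPM in control, 101, 103 and 108 in DDP_apoEV and 83.4, 72.1 and 88.9 in STS_apoEV. It was lower in both vesicle groups without overlap, at −0.45 ± 0.08 (adjusted p = 9.12e-05) and −0.80 ± 0.08 (adjusted p = 1.26e-09). SLC30A7, which fills the Golgi with zinc, rose with STS_apoEV (0.46 ± 0.09, adjusted p = 0.000147), while SLC41A1, a magnesium carrier, fell (−0.49 ± 0.11, adjusted p = 0.000481). SLC11A2 (DMT1), which imports iron, was not called in any comparison.

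**Figure D3:**
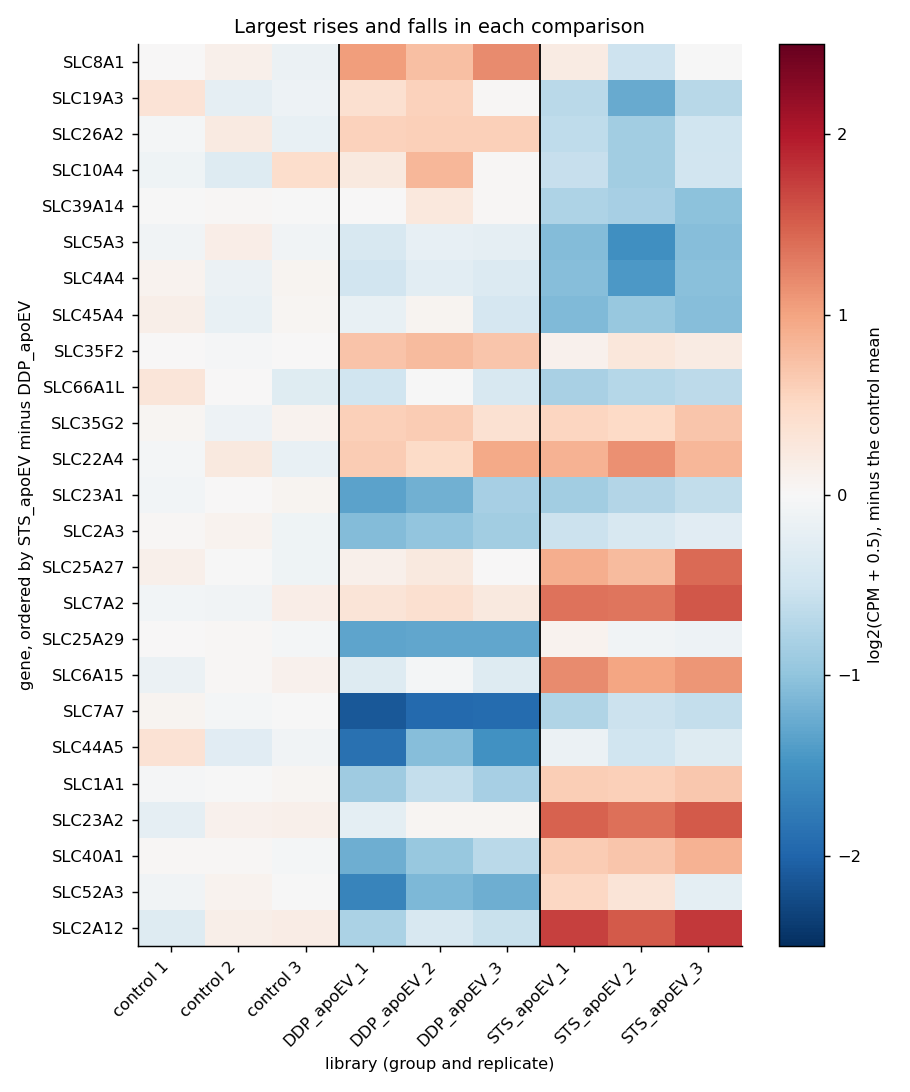
Shown are 25 members among those with the largest rises and falls in the 3 comparisons, as log2(CPM + 0.5) minus the control mean in each of the 9 libraries, ordered by the difference between STS_apoEV and DDP_apoEV. SLC2A12, SLC52A3 and SLC40A1 stand at the end with higher STS_apoEV values, and SLC8A1, SLC19A3 and SLC26A2 at the other.

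Carriers of sodium, chloride, bicarbonate and related ions gave 2 rises and 2 falls among 28 with DDP_apoEV (median −0.08) and 5 rises and 4 falls with STS_apoEV (median 0.12). SLC12A2 (NKCC1), which brings in sodium, potassium and chloride together, measured 210.1, 226 and 241 CPM in control, 119, 139.5 and 172 in DDP_apoEV and 324, 275 and 341 in STS_apoEV. The groups did not overlap, with DDP_apoEV lowest and STS_apoEV highest. The change with DDP_apoEV was −0.65 ± 0.12 (adjusted p = 0.00296), and the rise with STS_apoEV of 0.47 ± 0.12 (adjusted p = 0.00918) was lost on leaving out STS_apoEV library 3 (adjusted p = 0.0526). SLC26A2, which carries sulfate, had 93.2, 111 and 84.7 CPM in control, 143, 145 and 145 in DDP_apoEV and 61.2, 52 and 67.3 in STS_apoEV. Here DDP_apoEV libraries were highest and STS_apoEV libraries lowest, at 0.58 ± 0.09 (adjusted p = 3.78e-05) and −0.68 ± 0.10 (adjusted p = 2.01e-06).

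Of 4 members that are sodium-coupled bicarbonate carriers, which load the cell with base, SLC4A4 and SLC4A7 fell with STS_apoEV. SLC4A5 (0.05 ± 0.36, adjusted p = 0.931) and SLC4A8 (−0.27 ± 0.29, adjusted p = 0.519) were not called. SLC4A5 shares 64.0% of its exon bases with other genes, among them MTHFD2, so its count is uncertain. SLC4A4 measured 9.04, 7.59 and 8.88 CPM in control, 5.94, 7.01 and 6.61 in DDP_apoEV and 3.79, 2.83 and 3.87 in STS_apoEV. SLC4A7 measured 105, 127 and 111 CPM in control, 109, 127 and 117 in DDP_apoEV and 69.8, 54.2 and 69.1 in STS_apoEV. In both genes every STS_apoEV library was below every other library, at −1.28 ± 0.20 (adjusted p = 4.12e-06) for SLC4A4 and −0.83 ± 0.09 (adjusted p = 5.58e-08) for SLC4A7. SLC4A11, of the same family, had 12.2, 12.4 and 13.5 CPM in control, 5.75, 7.19 and 6.61 in DDP_apoEV and 14, 15.2 and 13.2 in STS_apoEV. The DDP_apoEV libraries were the lowest (−0.96 ± 0.15, adjusted p = 9.12e-06), and with STS_apoEV the difference from control was 0.15 ± 0.14 (adjusted p = 0.429). Its difference between the vesicle types was 1.12 ± 0.15 (adjusted p = 1.58e-07). The sodium-proton exchangers SLC9A5 and SLC9A8 were not called in any comparison, and SLC9A7, of the Golgi, rose with STS_apoEV (0.63 ± 0.10, adjusted p = 1.4e-05). With STS_apoEV SLC9A3 also rose (0.94, adjusted p = 0.0109), a call lost without control library 1 or STS_apoEV library 1 (adjusted p 0.0566 to 0.096). Of its exon bases 56.7% are shared with other genes. SLC9A2 fell (−0.35, adjusted p = 0.0277), a call lost without control library 2 or 3 or STS_apoEV library 2 (adjusted p 0.053 to 0.133). SLC8A1, a sodium-calcium exchanger of low level, had 1.3, 1.44 and 1.11 CPM in control, 3.19, 2.5 and 3.56 in DDP_apoEV and 1.54, 0.742 and 1.27 in STS_apoEV. Its DDP_apoEV libraries were the highest (1.26 ± 0.33, adjusted p = 0.00735).

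The class of organic cation and drug carriers, formed by symbol, gave 4 rises and 2 falls among 8 with STS_apoEV (median 0.63) and 1 rise with DDP_apoEV (median −0.07). Of all genes tested, 15.9% rose and 16.8% fell with STS_apoEV. Without each library in turn, 2 of the 4 rises and the 2 falls held. The rises of SLC22A15 (0.77, adjusted p = 0.0183) and SLC22A17 (0.65, adjusted p = 0.0188) were each lost without single libraries (adjusted p 0.0571 to 0.144). SLC22A17 was also lost under DESeq2 (adjusted p = 0.0503). SLC22A4 and SLC22A5 are neighbours on chromosome 5, at chr5:132294394-132344190 and chr5:132369710-132395613 on the plus strand, with 25519 bases between them. SLC22A4 carries ergothioneine and SLC22A5 carries carnitine. SLC22A4 measured 5.08, 6.36 and 4.58 CPM in control, 8.44, 7.62 and 10.7 in DDP_apoEV and 10.0, 12.3 and 9.85 in STS_apoEV. Every vesicle library was above every control library, at 0.74 ± 0.18 (adjusted p = 0.00398) and 1.01 ± 0.18 (adjusted p = 4.05e-05). SLC22A5 measured 44.8, 48.3 and 39.5 CPM in control, 40.3, 38.1 and 46.1 in DDP_apoEV and 27.7, 26.2 and 29.5 in STS_apoEV. It was lowest in the STS_apoEV libraries (−0.67 ± 0.10, adjusted p = 2.0e-06), with −0.09 ± 0.10 for DDP_apoEV (adjusted p = 0.588). The pair thus moved in opposite directions with STS_apoEV. The 250 bases before each start (RefSeq, GRCh38.p14, chr5:132294144-132294393 and chr5:132369460-132369709, plus strand) are shown side by side for that reason, with GC boxes in capitals.
SLC22A4: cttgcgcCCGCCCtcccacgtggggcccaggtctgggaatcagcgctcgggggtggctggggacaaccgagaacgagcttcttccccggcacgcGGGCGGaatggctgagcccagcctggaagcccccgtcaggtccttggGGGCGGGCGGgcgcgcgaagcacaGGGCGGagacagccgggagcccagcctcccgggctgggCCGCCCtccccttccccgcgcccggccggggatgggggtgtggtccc
SLC22A5: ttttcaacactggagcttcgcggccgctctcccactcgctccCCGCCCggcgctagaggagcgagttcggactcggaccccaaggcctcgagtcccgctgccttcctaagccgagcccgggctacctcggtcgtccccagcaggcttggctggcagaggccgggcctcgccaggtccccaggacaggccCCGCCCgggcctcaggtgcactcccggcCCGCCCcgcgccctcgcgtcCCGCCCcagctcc
The windows hold 6 and 4 matches to GGGCGG on either strand, of which 2 in SLC22A4 overlap each other. The motif stood in 67.3% of the 171 member windows and in 42.3% of all 27305 windows, which include genes of every kind.

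Other members of this class differed in direction. SLC22A23 had 14.8, 14.8 and 15.8 CPM in control, 12.1, 13.6 and 11.9 in DDP_apoEV and 29, 27.2 and 28.8 in STS_apoEV. Its STS_apoEV libraries were the highest (0.90 ± 0.11, adjusted p = 1.14e-07). SLC47A1 (MATE1), which expels organic cations in exchange for protons, had 33.6, 31.7 and 34.8 CPM in control, 35.4, 35.5 and 36.3 in DDP_apoEV and 22.8, 22 and 22.9 in STS_apoEV and fell with STS_apoEV (−0.56 ± 0.09, adjusted p = 1.61e-05).

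All 3 phosphate carriers rose with STS_apoEV and 1 of them with DDP_apoEV. SLC20A1, which takes up phosphate with sodium, measured 112, 111 and 120.0 CPM in control, 153, 178 and 141 in DDP_apoEV and 187, 189 and 186 in STS_apoEV. The 3 groups did not overlap, with control lowest, and the changes were 0.46 ± 0.08 (adjusted p = 6.17e-05) and 0.71 ± 0.08 (adjusted p = 1.2e-08). SLC20A2, its relative, rose with STS_apoEV by 0.37 ± 0.10 (adjusted p = 0.00277). For SLC34A3, a renal phosphate carrier of low level, the rise of 0.83 ± 0.24 (adjusted p = 0.00771) was lost on leaving out STS_apoEV library 1 (adjusted p = 0.0889). Among 10 carboxylate and bile acid carriers, SLC16A4, of the monocarboxylate family, had 44.4, 45.9 and 50.9 CPM in control, 56.5, 63.7 and 59.8 in DDP_apoEV and 91.4, 87.6 and 94 in STS_apoEV. Control was lowest and STS_apoEV highest without overlap, at 0.35 ± 0.08 (adjusted p = 0.00299) and 0.95 ± 0.08 (adjusted p = 5.79e-11). The class gave 1 rise and 2 falls with DDP_apoEV and 3 rises and 3 falls with STS_apoEV, and none of those 3 falls (SLC10A4, SLC16A5 and SLC16A13) held in every fit that left out a library. They were −0.75, lost on leaving out control library 3 or STS_apoEV library 1 or 2, and under limma-voom (adjusted p 0.0501 to 0.189), then −0.23, lost on leaving out control library 3 or STS_apoEV library 3, and with upper-quartile scaling, with the compared groups fitted alone and with a replicate block (adjusted p 0.0524 to 0.253), and −0.37, lost on leaving out control library 1 or 3 or STS_apoEV library 3 (adjusted p 0.0579 to 0.104).

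Of the 40 mitochondrial carriers, 3 rose and 2 fell with DDP_apoEV (median 0.06), and 5 rose and 10 fell with STS_apoEV (median −0.05). SLC25A29, which carries arginine and lysine into mitochondria, measured 58.8, 59.6 and 56.6 CPM in control, 22.9, 23.3 and 23.3 in DDP_apoEV and 61.8, 55 and 53.4 in STS_apoEV. The DDP_apoEV libraries lay close to each other and well below the rest (−1.33 ± 0.09, adjusted p = 4.11e-13), and control and STS_apoEV overlapped (−0.04 ± 0.08, adjusted p = 0.757). SLC25A37 (mitoferrin 1), which brings iron into mitochondria, had 77.2, 81 and 77.9 CPM in control, 115, 102 and 106 in DDP_apoEV and 138, 129.6 and 146 in STS_apoEV. It rose in both vesicle groups without overlap, by 0.45 ± 0.08 (adjusted p = 6.23e-05) and 0.81 ± 0.08 (adjusted p = 4.76e-10). SLC25A27 (UCP4), an uncoupling protein of low level, rose with STS_apoEV by 1.17 ± 0.22 (adjusted p = 9.85e-05).

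Falls with STS_apoEV covered carriers of several metabolites. SLC25A15, the ornithine carrier, measured 33.1, 36.5 and 32.3 CPM in control, 43.6, 34.3 and 37.9 in DDP_apoEV and 20.5, 22 and 22.4 in STS_apoEV. Its STS_apoEV libraries were below all others (−0.65 ± 0.10, adjusted p = 6.38e-06). SLC25A11, the oxoglutarate carrier, and SLC25A13, which exchanges aspartate for glutamate, also fell (−0.38 ± 0.09, adjusted p = 0.00083, and −0.37 ± 0.08, adjusted p = 0.000662). SLC25A43 fell to a like extent as SLC25A15 (−0.62 ± 0.09, adjusted p = 5.92e-07). Adenine nucleotide translocases did not move together with STS_apoEV. SLC25A6 rose (0.33 ± 0.08, adjusted p = 0.00235). SLC25A4 fell (−0.37 ± 0.11, adjusted p = 0.00845), a call lost on leaving out control library 1 or STS_apoEV library 1 (adjusted p 0.06 to 0.0686), and SLC25A5 fell (−0.18 ± 0.07, adjusted p = 0.0444), a call lost on leaving out control library 1 or 3 or STS_apoEV library 1 or 3, and with upper-quartile scaling, with no filter on low counts, with the compared groups fitted alone and with a replicate block (adjusted p 0.0641 to 0.145).

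The SLC35 family includes carriers that supply the Golgi and endoplasmic reticulum with nucleotide sugars for glycosylation. The class was formed by symbol, not by known substrate, so its counts do not stand for nucleotide sugar carriers alone. It gave 2 rises and 2 falls among 24 with DDP_apoEV and 5 rises and 6 falls with STS_apoEV, with medians of −0.03 and 0.01. SLC35F2 had 27.3, 26.6 and 27.2 CPM in control, 44.3, 46.8 and 43.8 in DDP_apoEV and 29.2, 33 and 31.4 in STS_apoEV. Its DDP_apoEV libraries were the highest (0.73 ± 0.09, adjusted p = 2.62e-07). SLC35C1, which carries GDP-fucose, had 24.3, 23 and 25.6 CPM in control, 22.3, 24 and 24.7 in DDP_apoEV and 40.2, 39.3 and 38.1 in STS_apoEV. Control and DDP_apoEV lay together and STS_apoEV above them (0.69 ± 0.10, adjusted p = 7.41e-07). SLC35E3 rose by a like amount (0.69 ± 0.09, adjusted p = 2.29e-07) and SLC35G2 rose in both vesicle groups, by 0.55 ± 0.10 (adjusted p = 0.000204) and 0.59 ± 0.10 (adjusted p = 3.27e-05). Carriers of CMP-sialic acid (SLC35A1) and of the sulfate donor PAPS (SLC35B2 and SLC35B3) were not called in any comparison. SLC35A1 shares 55.5% of its exon bases with another gene, so its count is uncertain. SLC17A5 (sialin), which releases sialic acid from lysosomes, measured 50.4, 49.5 and 43.3 CPM in control, 27.7, 35.6 and 28.4 in DDP_apoEV and 58.8, 56.9 and 69.1 in STS_apoEV. DDP_apoEV libraries were the lowest and STS_apoEV libraries the highest, at −0.64 ± 0.10 (adjusted p = 2.21e-05) and 0.37 ± 0.10 (adjusted p = 0.0039). Of the 4 SLC-named genes that are not carriers, SLC2A4RG, a regulator of the SLC2A4 promoter, was higher with DDP_apoEV (0.42 ± 0.12, adjusted p = 0.0285), a call lost on leaving out control library 2 or 3 or DDP_apoEV library 1 or 2 (adjusted p 0.0889 to 0.129).

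Opposite calls against control were found for 10 members (4.88%), each with a called difference between the vesicle types, as they were for 3.09% of all genes. Of the 10, SLC1A1, SLC17A5, SLC26A2 and SLC40A1 kept both calls without each library in turn, and the other 6 lost at least 1 of them. The 8 that were lower with DDP_apoEV and higher with STS_apoEV were SLC1A1, SLC2A12, SLC12A2, SLC17A5, SLC27A1, SLC35E2B, SLC40A1 and SLC51B. The 2 with the reverse order were SLC5A6 and SLC26A2. Both comparisons use the same control libraries. SLC35E2B, not yet described, had 24.5, 25 and 25.9 CPM in control, 17.8, 19.1 and 20.5 in DDP_apoEV and 38.1, 33.1 and 29.2 in STS_apoEV. Its lower level with DDP_apoEV (−0.39 ± 0.11, adjusted p = 0.0114) lost its call on leaving out DDP_apoEV library 1 (adjusted p = 0.0697), and its rise of 0.41 ± 0.11 (adjusted p = 0.00259) was lost on leaving out STS_apoEV library 1 (adjusted p = 0.0511). The member SLC35E2A, with 32042 bases between it and SLC35E2B on chromosome 1, was at −0.29 with DDP_apoEV and −0.14 with STS_apoEV. How reads were assigned between these genes was not tested.

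**Figure D4:**
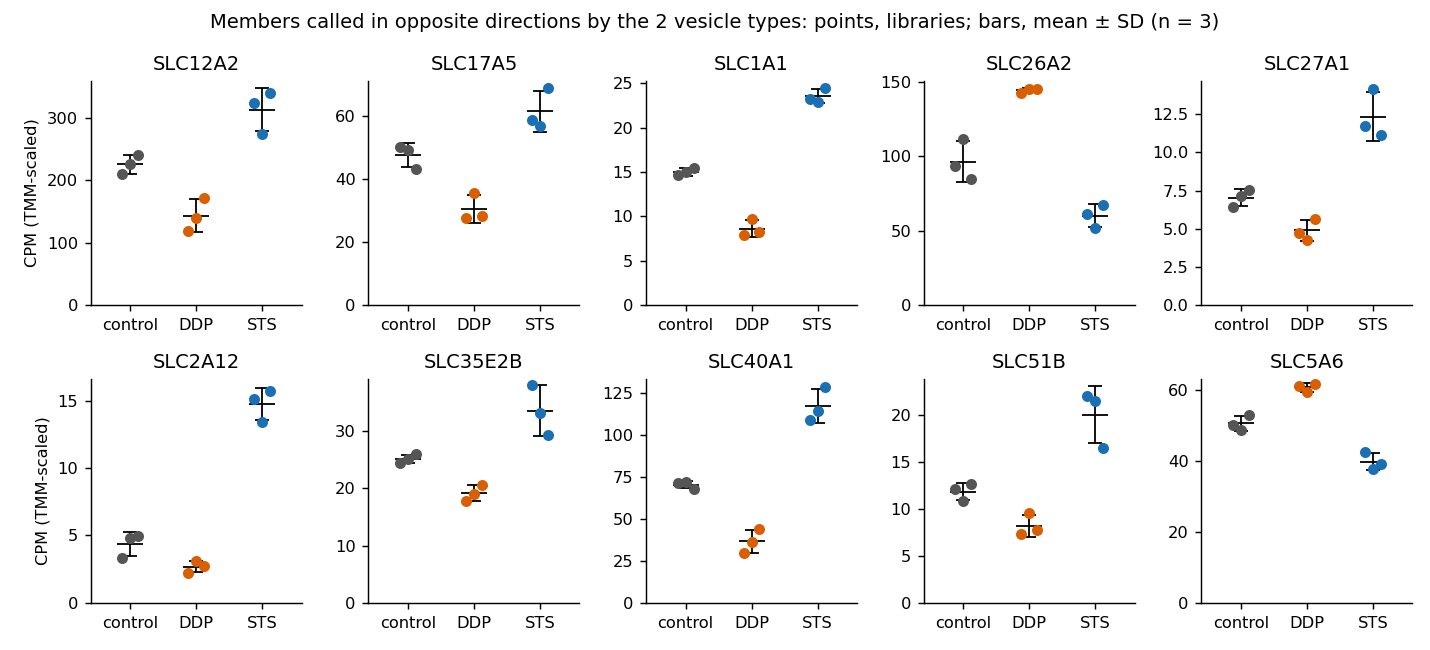
CPM (TMM-scaled, linear axes from 0) of the 10 members called in opposite directions against control by the vesicle types, one point per library with mean ± SD (n = 3). SLC40A1 runs from 29.9 to 43.8 with DDP_apoEV and from 109 to 128 with STS_apoEV, and SLC26A2 shows the reverse order.

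Pumps and partners that carriers rely on were read from lists beside the members. Of all genes tested, 7.16% rose and 8.32% fell with DDP_apoEV, and 15.9% rose and 16.8% fell with STS_apoEV. Whether the lists differ from these shares was not tested. Of 20 tested subunits of the V-type proton pump, which acidifies lysosomes, 3 fell and 17 were not called with DDP_apoEV, and 6 rose and 2 fell with STS_apoEV. ATP6V1G1 rose most among them with STS_apoEV (0.53 ± 0.08, adjusted p = 1.97e-06) and ATP6V1E2 fell (−0.84 ± 0.14, adjusted p = 2.05e-05). Of 5 tested subunits of the sodium-potassium pump, which makes the sodium gradient, 1 rose and 2 fell with each vesicle type, among them FXYD2, a regulatory subunit, at −2.07 ± 0.19 and −1.39 ± 0.18 (adjusted p = 6.25e-10 and 2.56e-07). Among 44 tested carriers without an SLC symbol, 3 rose and 10 fell with DDP_apoEV and 8 rose and 8 fell with STS_apoEV. SLCO2B1, a carrier of organic anions such as steroid sulfates, had 2.93, 1.78 and 2.98 CPM in control, 7.0, 5.79 and 5.02 in DDP_apoEV and 19.4, 19.6 and 18.8 in STS_apoEV. It rose in both groups, by 1.21 ± 0.20 (adjusted p = 3.1e-05) and 2.90 ± 0.19 (adjusted p = 5.27e-14). Of 17 tested partners and regulators, 2 rose and 3 fell with DDP_apoEV and 5 rose and 3 fell with STS_apoEV. ARRDC3 rose by 0.61 ± 0.10 and 1.52 ± 0.10 (adjusted p = 4.49e-05 and 1.02e-13). TXNIP, which lowers GLUT1 at the cell surface, rose with STS_apoEV (2.42 ± 0.49, adjusted p = 0.000589), and PDZK1, a scaffold that binds carriers such as SLC22A4 and SLC22A5, fell, at −1.99 ± 0.26 and −2.51 ± 0.27 (adjusted p = 5.9e-07 and 6.22e-09).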

How the data were processed

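TRIzol RNA of A549 cultures went into NEBNext Ultra libraries, per the labels' protocols. The submitters' processing notes name featureCounts 1.5.0-p3, limma, HISAT2 2.0.5, StringTie 1.3.3b and the hg38 build, with no role for each. No source used here gives the strandedness of the counting. The authors deposited unnormalized counts, whole numbers for each gene, and FPKM values for the same 62257 rows, of which 61552 carry an Ensembl ID and 61399 of these have a symbol. The deposited FPKM differ from counts scaled by gene length and column total by a factor of 0.944 to 1.01 per library. The 705 rows without an Ensembl ID took 0.313% to 0.357% of the counts and were kept in library sizes and the test. Gene types came from GENCODE 29, which may not be the authors' release.

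Counts of the 9 libraries were fitted together with edgeR 4.0.16 (R 4.3.3) after filterByExpr and TMM scaling, with a robust quasi-likelihood test, Benjamini-Hochberg adjustment over 16947 genes and a threshold of 0.05 with no minimum fold. The SE was derived from the fold change and its F value, and the common biological coefficient of variation was 0.0992. Gene CPM are TMM-scaled, and marker sums are not. FPKM were used for levels between genes. The test was tried on simulated data with known changes. It recovered 50 to 59 of 100 genes changed 1.5-fold and 67 to 82 of 100 changed 2-fold. Of its calls, 7.04% were false for DDP_apoEV against control, 7.33% for STS_apoEV against control and 3.31% between the vesicle types. The simulated data held 100 changed genes per fold among 16525 to 16539 tested. In the deposited data 15.5% to 39.7% of genes were called, a larger share, so these rates may not carry over to them. No pair of replicates agreed within sampling noise.

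Members named in the text are the 6 largest rises and falls per comparison whose groups do not overlap and whose log2 CPM averages 1 or more, up to 2 per substrate class of smallest p, 10 fixed genes and the 10 highest control levels. Further members were named after their values were seen. Some genes that the rule picks are not reported here. The members and gene lists were chosen with earlier results of these data known. Alternatives were other scalings and filters, DESeq2 1.42.0, limma-voom and limma 3.58.1 on log2(FPKM + 1) or log2(FPKM + 0.1), the compared groups alone, a replicate block, other count minimums and leaving out each library. Promoter windows came from RefSeq tables, which matched 171 of 205 members.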

Additional observations from a re-analysis of the deposited data

Results flagged for a closer look

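In 10 members the vesicle types gave calls in opposite directions against control, together with a called difference between them in edgeR's quasi-likelihood test. The comparisons share the control libraries. Of all genes, 3.09% met the same description, beside 4.88% of the members. When each library was left out in turn, SLC1A1, SLC17A5, SLC26A2 and SLC40A1 kept both calls. SLC2A12, SLC27A1, SLC51B and SLC5A6 lost the call with DDP_apoEV, SLC12A2 the call with STS_apoEV and SLC35E2B both, each without at least 1 library. As STS_apoEV minus DDP_apoEV on the log2 scale, the difference was 2.45 for the glucose carrier SLC2A12, 1.68 for the iron exporter SLC40A1, 1.45 for the glutamate carrier SLC1A1, 1.33 for the fatty acid carrier SLC27A1 and 1.28 for the steroid exporter subunit SLC51B. It was 1.13 for the chloride carrier SLC12A2, 1.01 for the sialic acid carrier SLC17A5 and 0.81 for SLC35E2B. With the opposite order it was −1.26 for the sulfate carrier SLC26A2 and −0.61 for the vitamin carrier SLC5A6.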

How the results depend on the processing

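Limma on log2(FPKM + 1) without a filter on low values gave fewer calls: 9 members higher and 14 lower with DDP_apoEV, 31 higher with STS_apoEV, 39 higher with STS_apoEV than with DDP_apoEV, and 74 that differed among the 3 groups. The cause was not tested. Every other alternative kept those counts within 1.5 times the reported ones. Fits on counts gave 13 to 17 higher and 26 to 30 lower members with DDP_apoEV, 41 to 52 and 39 to 44 with STS_apoEV, and 51 to 71 and 35 to 42 between the vesicle types. Upper-quartile scaling gave the split of 71 to 35. Leaving out 1 library at a time gave 12 to 14 and 22 to 28 with DDP_apoEV, 40 to 48 and 35 to 41 with STS_apoEV, and 54 to 58 and 31 to 40 between the vesicle types. Of 43, 92 and 107 calls in these 3 comparisons, 29, 64 and 71 held in every fit on counts, and DESeq2 lost 2, 6 and 20. Limma on filtered log2(FPKM + 1) lost 13, 16 and 26, on filtered log2(FPKM + 0.1) 12, 16 and 26, and without a filter 20, 32 and 41.

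The fit with the replicate number as a block gave 14 and 27 members with DDP_apoEV, 51 and 40 with STS_apoEV, 61 and 39 between the vesicle types and 114 among the 3 groups. It lost 2, 3 and 7 calls. Correlations of same-numbered libraries, with group means removed, ran from −0.363 to 0.255, and those of differently numbered libraries from −0.206 to 0.237. Removing the mean ties the 3 libraries of a group to each other. These values therefore cannot tell whether same-numbered libraries shared a batch or culture.

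Log2 fold changes that changed sign were all of members not called in that comparison. SLC38A1 came to 0.0085 with STS_apoEV under upper-quartile scaling. When 1 library was left out, the ranges with DDP_apoEV were SLC1A5 (−0.092 to 0.11), SLC23A2 (−0.16 to 0.041), SLC25A5 (−0.013 to 0.055), SLC34A3 (−0.13 to 0.12), SLC35C1 (−0.077 to 0.0012), SLC38A1 (−0.14 to 0.022) and SLC4A7 (−0.019 to 0.12). With STS_apoEV they were SLC25A39 (−0.12 to 0.0019), SLC38A1 (−0.10 to 0.068) and SLC8A1 (−0.37 to 0.13), and between the vesicle types SLC25A1 (−0.19 to 0.010), SLC27A2 (−0.11 to 0.021), SLC35G2 (−0.036 to 0.080) and SLC38A1 (−0.025 to 0.14).

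With a minimum of 90 summed counts there were 217 members, of which 15 rose and 30 fell with DDP_apoEV and 50 rose and 43 fell with STS_apoEV. With a minimum of 900 there were 160, with 13 and 26, and 41 and 39. At low counts the depth limits what can be called: SLC8A1 and SLC52A3 stood at or below 4 CPM in each library.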

Other observations

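Some members are neighbours on a chromosome in the deposited table. SLC25A43 and SLC25A5 lie on chromosome X with 13943 bases between them, and with STS_apoEV their log2 fold changes were −0.62 and −0.18. SLC29A1 and SLC35B2, on chromosome 6 with 19953 bases between, were at −0.58, which passed the test, and 0.03, which did not. SLC22A18 and SLC22A18AS overlap on chromosome 11 and share 4.27% and 12.7% of their exon bases. Without strand, reads from the shared bases cannot be told apart. With STS_apoEV they were at 0.62 and 0.46 against control and neither was called. Between the vesicle types SLC22A18 was called higher with STS_apoEV (1.08, adjusted p = 0.00427), and SLC22A18AS was not called (0.60).

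The 10 carriers left out of the members by name were tested beside them, except 1 that did not pass the expression filter. Of the 9 tested, 2 rose and 1 fell with DDP_apoEV, 4 rose and 3 fell with STS_apoEV, and 3 were higher and 2 lower with STS_apoEV than with DDP_apoEV. The shares of all genes were, in the same order, 7.16% and 8.32%, 15.9% and 16.8%, and 20.2% and 19.5%.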
